A study of Mus musculus with 7 samples.

Results

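The insulin-like growth factor (IGF) axis was followed in the myocardium of mice 4 days after myocardial infarction (MI). It was taken as 10 genes listed by symbol, of 56980 genes measured: the ligands Igf1 and Igf2, the receptors Igf1r and Igf2r, and the binding proteins Igfbp2, Igfbp3, Igfbp4, Igfbp5, Igfbp6 and Igfbp7. Of the 10, 9 had 3 or more mice at 1 FPKM or above and entered the test with 11431 genes in all, and Igfbp2 did not. FPKM scales the sequenced fragments of a gene by its length and by the fragments of the whole library.

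Total RNA was sequenced from myocardial tissue of 7 wild-type (WT) male C57BL/6J mice, bought at 8 weeks of age. In 3 mice the left coronary artery was tied off (MI mice), and 4 sham-operated mice had the same operation without the tie. Each mouse gave 1 library. The study calls the MI tissue ischemic, and how much infarct, border or remote muscle each sample held is not given in the sources used here.

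IGF1 and IGF2 are small secreted proteins, related to insulin, that drive growth and survival of many cell types. Both signal through the IGF1 receptor, a tyrosine kinase that feeds the PI3K and Akt cascade, while the IGF2 receptor, also the receptor for mannose 6-phosphate, has no kinase and carries IGF2 to lysosomes for breakdown. IGF-binding proteins hold the ligands outside cells, prolong their life and withhold or deliver them to the receptor, and in the heart the axis is known for its role in muscle growth and in repair after injury.

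The 3 binding proteins with the largest log2 fold changes were Igfbp7, Igfbp6 and Igfbp4. The 250 bases before their RefSeq start sites (GRCm38.p6) are shown 5′ to 3′ on the gene's strand so that these 3 can be set side by side. Igf1 was second among all members by log2 fold change with a pseudocount of 1 on the deposited values, and above Igfbp7 with a pseudocount of 0.1. Its window overlaps an exon of Igf1 and is not shown. Capitals mark matches, on either strand, to 5 motifs. They are the TATA motif with the letters TATAAA, the CCAAT box, which is spelled by its own name, the GC box with the letters GGGCGG, the AP-1 motif with the letters TGANTCA and the STAT motif with the letters TTCNNNGAA. Igfbp7 lies at chr5:77349240-77408041 on the minus strand, and its window is chr5:77408046-77408295. Igfbp6 lies at chr15:102144362-102149511 on the plus strand, with the window chr15:102143936-102144185. Igfbp4 lies at chr11:99041244-99054392 on the plus strand, with the window chr11:99040994-99041243.
Igfbp7: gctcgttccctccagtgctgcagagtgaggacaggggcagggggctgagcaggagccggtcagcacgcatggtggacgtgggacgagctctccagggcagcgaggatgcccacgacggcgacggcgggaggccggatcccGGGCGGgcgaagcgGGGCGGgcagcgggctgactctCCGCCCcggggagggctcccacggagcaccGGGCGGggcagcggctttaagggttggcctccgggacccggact
Igfbp6: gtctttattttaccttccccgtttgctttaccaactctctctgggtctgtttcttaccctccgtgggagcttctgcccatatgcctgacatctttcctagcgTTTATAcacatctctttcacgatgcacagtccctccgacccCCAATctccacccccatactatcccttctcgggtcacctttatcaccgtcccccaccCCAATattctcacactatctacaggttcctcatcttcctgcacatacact
Igfbp4: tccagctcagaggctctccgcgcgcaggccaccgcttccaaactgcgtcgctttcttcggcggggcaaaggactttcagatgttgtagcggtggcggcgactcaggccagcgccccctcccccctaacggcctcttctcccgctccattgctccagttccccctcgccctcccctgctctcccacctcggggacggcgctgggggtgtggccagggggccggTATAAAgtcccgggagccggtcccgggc
None of the 3 windows overlapped an annotated exon. The Igfbp7 window, at 74% G or C, held 4 GC boxes and none of the other motifs. The Igfbp6 window was 49.6% G or C and held 1 TATA motif and 2 CCAAT boxes, and the Igfbp4 window was 69.2% G or C and held 1 TATA motif. Over 32851 windows of the same length, 12.4% held the TATA motif, 33.8% the CCAAT box, 32.7% the GC box, 6.75% the AP-1 motif and 7.02% the STAT motif. A match is only a run of letters and not a measured binding site.

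Depth did not separate the groups: from 19977713 to 23473543 fragments in the sham mice and from 21781014 to 23610870 in the MI mice. MI replicate 2 stood apart from the other MI mice. Across the genes tested its log2 values correlated with those of the sham libraries at 0.984 to 0.987, close to the 0.989 to 0.992 among the sham libraries, while MI replicate 1 reached 0.878 to 0.881 and MI replicate 3 reached 0.903 to 0.906. This is a description across genes, which are not independent. Mitochondrial genes held 26.5% to 27.4% of the fragments in the sham mice and 28.2% in MI replicate 2, but 13.6% in MI replicate 1 and 14.9% in MI replicate 3. The 8 cardiomyocyte markers summed to 12278 to 13439 FPKM in the sham mice and 12351 in MI replicate 2, against 8396 and 8804 in MI replicates 1 and 3. The 8 fibroblast markers summed to 122 to 145 FPKM in the sham mice, 2492 and 1923 in MI replicates 1 and 3, and 232 in MI replicate 2. The log2 fold changes of the members, the pairs and the named pathway genes are therefore given with and without MI replicate 2, and since that mouse was singled out by its values, a fit without it describes MI replicates 1 and 3. The fragments of a library are shared out among its genes, and the median gene had a log2 fold change of 0.21, or 0.33 without MI replicate 2. The log2 fold changes of the members are also given relative to the median gene. In tissue RNA, fewer cells of a type and less RNA per cell cannot be told apart.

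**Figure D1:**
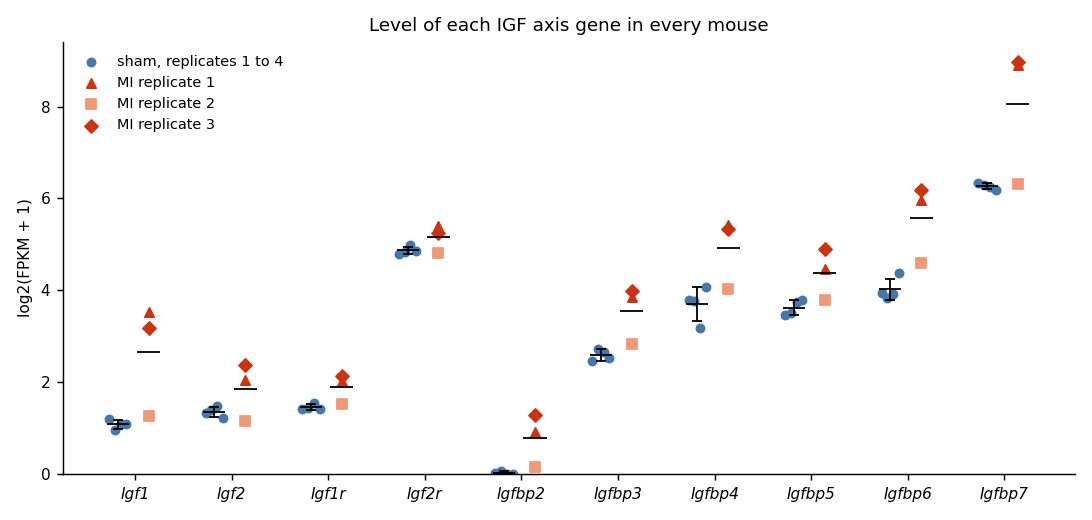
Level of the 10 IGF axis genes in each mouse, as log2(FPKM + 1). Blue points are the 4 sham mice, red triangles, squares and diamonds are MI replicates 1, 2 and 3, and bars are the group mean, with the SD for the sham mice. MI replicates 1 and 3 sit above all sham mice for each gene, while MI replicate 2 sits near or within the sham points. The log2 fold change of Igf2r turns to -0.04 without mitochondrial genes.

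In sham myocardium the levels per length ran from Igfbp7 at 76.3 FPKM ± 3.45 (SD, n = 4) down to Igfbp2 at 0.017 ± 0.0242. Igf2r followed Igfbp7 at 28.2 ± 1.69, then Igfbp6 at 15.4 ± 2.85, Igfbp4 at 12.2 ± 3.15 and Igfbp5 at 11.4 ± 1.36. Igfbp3 had 5.03 ± 0.511, Igf1r 1.74 ± 0.129, Igf2 1.56 ± 0.189 and Igf1 1.11 ± 0.139. The ranges of Igfbp6 and Igfbp4, of Igfbp4 and Igfbp5, and of Igf1r and Igf2 overlapped between neighbours, and the other neighbours were apart. Sham myocardium thus had more mRNA for each of 5 binding proteins than for either ligand. The lengths behind the FPKM values exceeded the exon length in GENCODE M21 for 9 of the 10 genes (13154 against 5723 bases for Igf2, 13144 against 9904 for Igf1, equal at 1112 for Igfbp6), which bears on any order between genes but not on the comparison of 1 gene between mice. With the GENCODE M21 lengths Igf2 lay above Igf1r with no overlap in the sham mice, at 3.04 to 4.06 against 1.87 to 2.18, and Igfbp5, at 16.6 to 21, lay above Igfbp6, at 13.3 to 19.6, in each sham mouse.

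In the MI mice Igfbp7 was again the highest, at 351 FPKM ± 236 (SD, n = 3), and Igfbp2 the lowest, at 0.81 ± 0.668. Between them came Igfbp6 at 52.1 ± 25.6, Igf2r at 35 ± 7, Igfbp4 at 32.2 ± 14.8, Igfbp5 at 20.8 ± 7.9, Igfbp3 at 11.5 ± 4.72, Igf1 at 6.67 ± 4.74, Igf2 at 2.84 ± 1.51 and Igf1r at 2.76 ± 0.777. The ranges of neighbours from Igfbp6 down to Igf1r overlapped between mice. Within each of the 3 mice Igfbp4 lay above Igfbp5, Igfbp5 above Igfbp3, Igfbp3 above Igf1 and Igf1 above Igf2, while the order of Igfbp6 and Igf2r, of Igf2r and Igfbp4, and of Igf2 and Igf1r differed between mice. With the GENCODE M21 lengths Igfbp5 was above Igfbp4, and Igf2 above Igf1, in MI replicate 2. Igf2 was then above Igf1r in each of the 3 MI mice, at 7.15, 2.79 and 9.64 against 3.44, 2.12 and 3.78. Without MI replicate 2, Igf1 stood at 9.31 FPKM, above Igf2 at 3.65 and Igf1r at 3.2 with no overlap, while in the sham mice it lay below both.

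None of the 9 members tested passed an adjusted p of 0.05 in either direction in limma's test with Benjamini-Hochberg adjustment over all genes, where 0.0175% of all genes were called higher and 0.00875% lower; with voom weights on recovered fragments the count was also 0. At an unadjusted p under 0.05 in limma, 7 of the 9 were higher in the MI mice (all but Igf2 and Igf2r) and 0 lower, against 29.5% of all genes tested higher and 9.85% lower. In 4 of the 9 (Igf1, Igfbp3, Igfbp5 and Igfbp6) every MI mouse lay above every sham mouse, against 16.1% of all genes. Groups that did not overlap in either direction made up 25.1% of all genes, and the same 4 members were the ones among the 9. The log2 fold change was above 0 in 9 of 9, against 73% of all genes. That of Igf2r turned to -0.04 when mitochondrial genes were left out and the other genes scaled up to the same FPKM sum. The median over the 9 was 0.97, against 0.21 over all genes. Without MI replicate 2, 9 of 9 were called higher, where 57.0% of all genes were called higher and 14.7% lower, and the median of the 9 was 1.33 against 0.33. Leaving out MI replicate 1 or 3 instead lowered the log2 fold change of each of the 9, and none was then called.

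**Figure D2:**
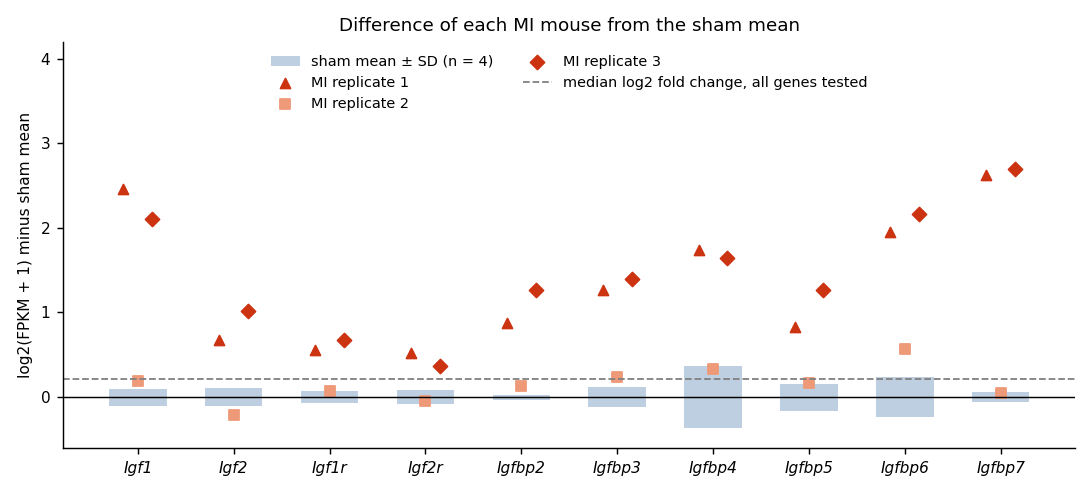
Difference of each MI mouse from the sham mean, on the log2(FPKM + 1) scale, for the 10 genes. Blue boxes span the sham mean ± SD (n = 4), red symbols are the 3 MI mice and the dashed line is the median log2 fold change of all genes tested, 0.21. MI replicates 1 and 3 lie above the dashed line for each gene and MI replicate 2 lies between -0.21 and 0.57. The Igf2r difference depends on scaling and turns to -0.04 without mitochondrial genes.

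Igf1, the ligand that acts as the main IGF of adult tissues, was measured at 1.28, 0.937, 1.13 and 1.12 FPKM in sham replicates 1 to 4. In MI replicates 1 to 3 it was at 10.6, 1.4 and 8.02 FPKM, from 3031, 418 and 2490 fragments against 267 to 376 in the sham mice. Replicates 1 and 3 of the MI mice were far above the sham mice, replicate 2 was just above the highest of them, and the groups did not overlap. The log2 fold change was 1.58 (SE 0.49, 95% interval 0.42 to 2.73), with an adjusted p of 0.108 in limma. The exact permutation p was 0.0571, the smallest that this two-sided test can give for 3 against 4 mice. Relative to the median gene the log2 fold change was 1.37, and without MI replicate 2 it was 2.28 (SE 0.11). Igf1 spans chr10:87858265-87937042 on the plus strand, and its antisense gene Igf1os, which shares no exon base with it, stayed at or under 0.0822 FPKM.

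Igf2, the ligand of fetal growth and an imprinted gene read from the paternal copy, was measured at 1.52, 1.64, 1.77 and 1.32 FPKM in the sham mice. The 3 MI mice had 3.11, 1.21 and 4.2 FPKM. Replicates 1 and 3 of the MI mice were above every sham mouse and replicate 2 below every one, so the groups overlapped. The log2 fold change of 0.50 (SE 0.27; 95% interval -0.13 to 1.13), or 0.29 relative to the median gene, had an adjusted p of 0.185 in limma and an exact permutation p of 0.286. It was 0.85 (SE 0.11) without MI replicate 2 and 0.24 without MI replicate 3. Igf2 (chr7:142650766-142666816, minus strand) shares 3596 exon bases with the gene Gm49394 on its strand, which was listed at 0 in all mice, and 98 with Igf2os on the other strand, at most 0.0812 FPKM. Reads that fall on shared bases could be split or lost, so the level of Igf2 is uncertain.

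The balance of the ligands was compared within each mouse. Igf1 divided by Igf2, on the FPKM scale, was 0.84, 0.571, 0.638 and 0.845 in the sham mice and 3.4, 1.16 and 1.91 in the MI mice. On the deposited scale Igf2 was thus the higher ligand in all 4 sham mice and Igf1 in all 3 MI mice. With the GENCODE M21 exon lengths the ratio was 0.33 to 0.488 in the sham mice and 1.97, 0.669 and 1.1 in the MI mice, so in MI replicate 2 the higher ligand was then Igf2. All 3 MI ratios exceeded all 4 sham ratios with either lengths. The within-mouse difference of log2(FPKM + 1), Igf1 minus Igf2, averaged -0.28 ± 0.16 (SD, n = 4) in the sham mice and 0.80 ± 0.69 (SD, n = 3) in the MI mice. The difference of 1.08 had an exact permutation p of 0.0571, adjusted over the 5 pairs compared to 0.143, and it was 1.42 without MI replicate 2 and 0.73 without MI replicate 1.

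**Figure D3:**
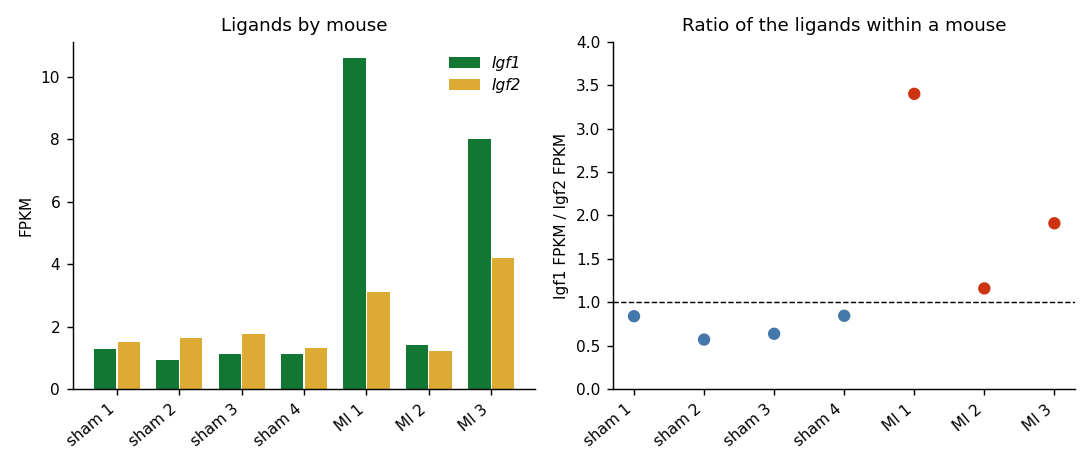
Left, FPKM of Igf1 (green) and Igf2 (yellow) in each mouse, with bars from 0. Right, the ratio of Igf1 to Igf2 FPKM within each mouse, with sham mice in blue, MI mice in red and a dashed line at equal levels. All 4 sham mice lie under the line, at 0.571 to 0.845, and all 3 MI mice above it, at 1.16 to 3.4; with GENCODE M21 lengths MI replicate 2 would lie under it, at 0.669.

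Igf1r, the signalling receptor of both ligands (chr7:67952827-68233668, plus strand), was measured at 1.66, 1.71, 1.93 and 1.66 FPKM in the sham mice and at 3.05, 1.88 and 3.35 FPKM in the MI mice. MI replicate 2 lay inside the sham range and the other MI mice above it. Its log2 fold change was 0.44 (SE 0.15), or 0.23 relative to the median gene, with an adjusted p of 0.108 in limma and an exact permutation p of 0.114. It was 0.62 (SE 0.07) without MI replicate 2.

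Igf2r, the receptor that clears IGF2 (chr17:12682406-12769664, minus strand), was measured at 26.8, 27.5, 30.6 and 27.8 FPKM in the sham mice and at 40.9, 27.2 and 36.8 FPKM in the MI mice. MI replicates 1 and 3 were above the sham range and MI replicate 2 within it. The log2 fold change of 0.28 (SE 0.15) was close to that of the median gene (0.07 above it), had an adjusted p of 0.173 in limma and an exact permutation p of 0.229, and turned to -0.04 without mitochondrial genes. Without MI replicate 2 it was 0.45 (SE 0.08), and without MI replicate 1 it was 0.16. Airn, the antisense RNA of the imprinted Igf2r locus, shares no exon base with it and was at 0.794 to 0.837 FPKM in the sham mice and at 1.21, 1.12 and 1.21 FPKM in the MI mice.

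Igf2r mRNA exceeded Igf1r mRNA in every mouse, by a factor of 15.9 to 16.7 in the sham mice and of 13.4, 14.5 and 11 in the MI mice. All 3 MI mice had a smaller ratio than all 4 sham mice. On the log2(FPKM + 1) scale the difference between the groups in Igf1r minus Igf2r was 0.15, with an exact permutation p of 0.0571 and 0.143 after adjustment over the 5 pairs. It was 0.21, 0.17 and 0.08 without MI replicate 1, 2 and 3 in turn, and after quantile normalization it was 0.10 with an exact permutation p of 0.286. Igf1 minus Igf1r, the ligand against its own receptor, differed by 1.14 between the groups (1.66 without MI replicate 2 and 0.77 without MI replicate 1), with an exact permutation p of 0.114 and an adjusted value of 0.143. MI replicate 2, at -0.26, fell in the sham range of -0.48 to -0.23 and the other MI mice at 1.52 and 1.05.

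Igfbp2, a binding protein abundant in the fetus (chr1:72824503-72852474, plus strand), was barely detected in sham myocardium, at 0.0165, 0.0513, 0 and 0 FPKM, which stand for 1, 3, 0 and 0 fragments. The MI mice had 0.869, 0.115 and 1.45 FPKM, or 51, 7 and 92 fragments. All 3 MI mice were above all sham mice, with an exact permutation p of 0.0571. It was below the filter and has no value in the fit, and no fold is given against so few fragments.

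Igfbp3, the main carrier of IGFs in blood (chr11:7206086-7213923, minus strand), was measured at 4.49, 5.63, 5.26 and 4.75 FPKM in the sham mice and at 13.4, 6.11 and 14.9 FPKM in the MI mice. MI replicate 2 was just above the highest sham mouse and the groups did not overlap. In the fit the log2 fold change was 0.97 (SE 0.27), or 0.76 relative to the median gene, with an adjusted p of 0.108 in limma and an exact permutation p of 0.0571, and 1.33 (SE 0.09) without MI replicate 2. Igf1 minus Igfbp3 differed by 0.61 between the groups, with an exact permutation p of 0.229 (adjusted 0.229), by 0.94 without MI replicate 2 and by 0.32 without MI replicate 1. MI replicates 1 and 3, at -0.32 and -0.82, lay above the highest sham mouse at -1.27, and MI replicate 2, at -1.56, lay within the sham range.

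Igfbp4, an inhibitor of IGF action that the protease PAPP-A cleaves, varied most among the sham mice on the log2 scale. It was measured at 12.7, 12.6, 8.04 and 15.7 FPKM there and at 42.1, 15.2 and 39.3 FPKM in the MI mice. MI replicate 2 fell within the sham range and the other MI mice well above it. The log2 fold change was 1.24 (SE 0.37), or 1.03 relative to the median gene, with an adjusted p of 0.108 in limma and an exact permutation p of 0.114, and 1.69 (SE 0.22) without MI replicate 2.

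Igfbp5, which binds extracellular matrix as well as IGFs (chr1:72857932-72874884, minus strand), was measured at 10, 10.4, 12.4 and 12.7 FPKM in the sham mice and at 20.9, 12.9 and 28.7 FPKM in the MI mice. The groups did not overlap, but MI replicate 2 was barely above sham replicate 4. Its log2 fold change was 0.76 (SE 0.25), or 0.55 relative to the median gene, with an adjusted p of 0.108 in limma and an exact permutation p of 0.0571, 1.05 (SE 0.15) without MI replicate 2 and 0.50 without MI replicate 3. Igf1 minus Igfbp5 differed by 0.82, with an exact permutation p of 0.114 (adjusted 0.143), by 1.23 without MI replicate 2 and by 0.42 without MI replicate 1.

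Igfbp6, which prefers IGF2 to IGF1, had the smallest unadjusted p of the members in limma, 0.00352. It was measured at 14.4, 13.3, 14.1 and 19.6 FPKM in the sham mice and at 61.7, 23.1 and 71.5 FPKM in the MI mice. All 3 MI mice were above all sham mice, and MI replicate 2 was 0.57 above the sham mean on the log2 scale, its largest departure among the 10 genes. In the fit the log2 fold change was 1.56 (SE 0.37; 95% interval 0.70 to 2.43), or 1.35 relative to the median gene, with an adjusted p of 0.108 in limma and an exact permutation p of 0.0571, and 2.06 (SE 0.15) without MI replicate 2.

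Igfbp7, a matrix and vessel protein that binds IGFs only weakly, headed the members by log2 fold change. It was measured at 80.1, 77.7, 75.5 and 72 FPKM in the sham mice and at 475, 78.9 and 498 FPKM in the MI mice. MI replicate 2 lay inside the narrow sham range, so the groups overlapped although the other MI mice averaged 6.37 times the sham mean. In the fit the log2 fold change was 1.79 (SE 0.61; 95% interval 0.37 to 3.21), or 1.58 relative to the median gene, with an adjusted p of 0.108 in limma and an exact permutation p of 0.114, and 2.66 (SE 0.06) without MI replicate 2. Igfbp7 shares 85 exon bases with Polr2b, a gene of the other strand that was at 8.96 to 10.2 FPKM in all mice.

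Together the 6 binding proteins summed to 122, 120, 115 and 125 FPKM in the sham mice and to 614, 136 and 654 FPKM in the MI mice. Igfbp7 held 57.7% to 65.8% of that sum in the sham mice, 77.4% and 76.1% in MI replicates 1 and 3, and 57.9% in MI replicate 2. Igfbp5 held 8.25% to 10.7% in the sham mice and 3.4%, 9.43% and 4.39% in the MI mice. The sum came to 39.8 to 51 times the sum of the ligands in the sham mice and to 44.8, 52.1 and 53.5 times in the MI mice. These ranges overlapped on the deposited lengths, but with the GENCODE M21 exon lengths the values were 31.4 to 40.8 in the sham mice and 44.5, 43.2 and 49.3 in the MI mice, which did not overlap. Without Igfbp7 the other 5 came to 14.9, 16.3, 13.8 and 21.6 times the ligands in the sham mice and to 10.2, 21.9 and 12.8 times in the MI mice. With the GENCODE M21 lengths they came to 10.4, 10.9, 9.37 and 15 times in the sham mice and to 8.12, 15.7 and 9.54 times in the MI mice. MI replicate 1 was below and MI replicate 2 above every sham mouse with either lengths, while MI replicate 3 was below every sham mouse only with the deposited ones. These ratios compare mRNA per length and say nothing of the proteins.

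**Figure D4:**
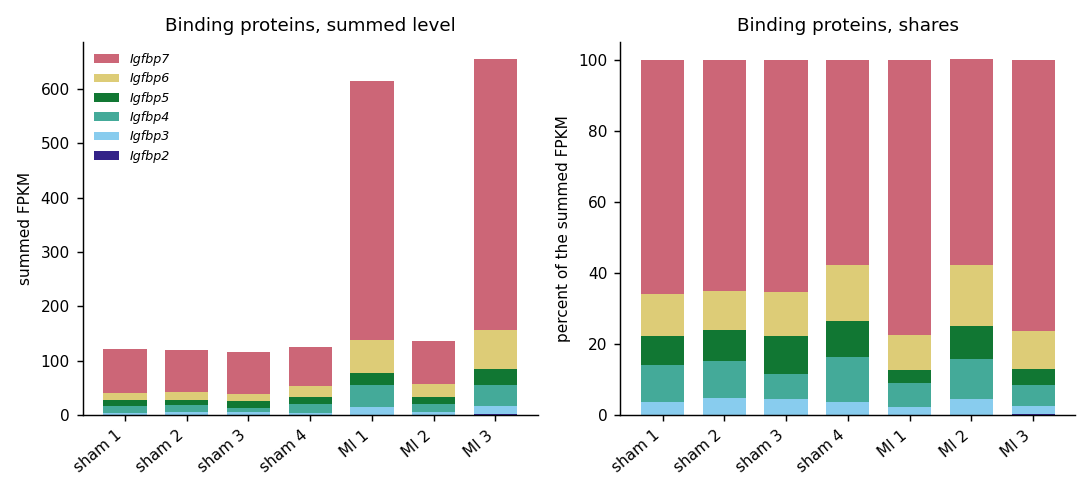
Left, FPKM of the 6 binding proteins stacked for each mouse from 0. Right, the same values as percent of their sum in that mouse. MI replicates 1 and 3 reach 614 and 654 FPKM against 115 to 136 in the other mice, and Igfbp7, in red, takes 77.4% and 76.1% of the sum in them.

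The same division of the MI mice was seen in the cell type markers, and the part of a changed cell make-up in the IGF values was not tested. No marker tested passed an adjusted p of 0.05 in limma over all 7 mice. At an unadjusted p under 0.05 in limma, where 29.5% of all genes were higher and 9.85% lower, 8 of 8 fibroblast markers, 7 of 7 macrophage markers and 3 of 3 mesothelium markers tested were higher in the MI mice, and 5 of 8 cardiomyocyte markers were lower. Only 1 of 7 endothelial markers was higher and 0 were lower, and of 6 smooth muscle and pericyte markers tested 2 were higher and 1 lower. The 7 macrophage markers summed to 158 to 204 FPKM in the sham mice and to 1048, 191 and 895 FPKM in MI replicates 1 to 3. The 4 mesothelium markers summed to 3.42 to 8.06 FPKM in the sham mice and to 21, 15.4 and 32.2 FPKM in the MI mice, so MI replicate 2 was above the sham range in these and in the fibroblast sum. The adipocyte markers, none of which passed the filter, summed to 0.184 to 0.773 FPKM in the sham mice and to 87.5, 0.175 and 263 FPKM in the MI mice, with Lep at 0 in all sham mice and in MI replicate 2. The lymphocyte sum was 0.45 to 0.625 FPKM in the sham mice against 25.8, 0.596 and 4.3, and the neutrophil sum 0.3 to 1.27 against 13.6, 0.485 and 7.25, with Retnlg at 0 in the sham mice and MI replicate 2. The 7 endothelial markers summed to 139 to 164 FPKM and to 182, 133 and 195 FPKM, and the 7 of smooth muscle and pericytes to 218 to 260 and to 348, 222 and 386. Within the latter, Tagln, an actin-binding protein, had a log2 fold change of 1.63, and among pericyte markers Pdgfrb had 0.61 (0.95 without MI replicate 2), Rgs5 -0.03 and Kcnj8 -0.28. The sign of Rgs5 turned on the TPM scale. The 4 proliferation genes summed to 2.24 to 3.29 FPKM and to 11.5, 2.59 and 9.87 FPKM. The skeletal muscle sum was 0.322 to 0.575 FPKM in the sham mice and 2.19, 0.497 and 2.91 FPKM in the MI mice. Most of it in MI replicates 1 and 3 was Tnnt3, at 1.88 and 2.54 FPKM, and Myh4 was listed at 0 in all mice.

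Other genes of the pathway were taken as 56 genes in 6 lists, of which 41 were tested. None of the 41 passed an adjusted p of 0.05 in limma. At an unadjusted p under 0.05, 13 were higher and 3 lower in the MI mice, against 29.5% and 9.85% of all genes, and in 16 the groups did not overlap, against 25.1% of all genes. Their median log2 fold change was 0.19, near the 0.21 of all genes. For 20 of the 41 the sign turned under at least 1 of the 4 other scalings. Without MI replicate 2, 21 were called higher and 7 lower, against 57.0% and 14.7% of all genes.

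Of 8 soluble partners and proteases of the binding proteins, 3 were tested. At an unadjusted p under 0.05 in limma 1 of the 3 was higher, near the 29.5% of all genes. This was Stc2, an inhibitor of PAPP-A, at 1.93 to 2.12 FPKM in the sham mice and 4.22, 1.94 and 4.63 FPKM in the MI mice, with a log2 fold change of 0.54 (SE 0.22; adjusted p 0.118 in limma), or 0.84 without MI replicate 2. Htra1, a protease that cleaves binding proteins, had 0.22 (SE 0.14), or 0.36 without MI replicate 2, and turned to -0.11 without mitochondrial genes. Pappa, which encodes the protease PAPP-A, was under the filter, at 0.059 to 0.125 FPKM in the sham mice and 1.9, 0.132 and 0.626 FPKM in the MI mice. All 3 MI mice were above all sham mice, MI replicate 2 by little. Igfals, the partner of Igfbp3 in blood, Igfbpl1 and Pappa2 were also under the filter, and Igfbp1 was listed at 0 in every mouse.

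Of insulin and its receptors, Insr, the insulin receptor, was the only one tested. It was at 9 to 11.8 FPKM in the sham mice and 9.06, 11.6 and 8.89 FPKM in the MI mice, which overlapped. Its log2 fold change was -0.07 (SE 0.13; adjusted p 0.691 in limma), or -0.18 without MI replicate 2, and it turned to 0.12 on the TPM scale. Ins1 was listed at 0 in all mice, and Ins2 and Insrr were under the filter.

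Among 11 adaptors and inhibitors at the receptor that were tested, 5 were higher and 1 lower at an unadjusted p under 0.05, against 29.5% and 9.85% of all genes. Socs3, a cytokine-induced inhibitor that also acts on insulin signalling, had the largest log2 fold change, 1.90 (SE 0.62; adjusted p 0.108 in limma), or 2.71 without MI replicate 2. It was at 1.1 to 1.21 FPKM in the sham mice and at 21.7, 1.65 and 7.81 FPKM in the MI mice, with no overlap. Ptpn1, a phosphatase of the insulin and IGF1 receptors, had 0.93 (SE 0.33), or 1.39 without MI replicate 2, with MI replicate 2 at 4.08 FPKM inside the sham range of 3.76 to 4.13. Grb14, an adaptor that inhibits insulin receptor signalling, was the only one with a negative value, -0.66 (SE 0.15; adjusted p 0.108 in limma), or -0.85 without MI replicate 2. It was at 17.9 to 19.8 FPKM in the sham mice and at 10.2, 15.3 and 9.85 FPKM in the MI mice, so MI replicate 2 lay below the sham range as well. The signs for Socs3, Ptpn1 and Grb14 held under the 4 other scalings.

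Of 21 genes of PI3K, Akt and mTOR signalling, 6 were higher and 0 lower at an unadjusted p under 0.05, against 29.5% and 9.85% of all genes, and the median log2 fold change was 0.19. Gsk3b, a kinase that Akt inhibits, had a log2 fold change of 0.53 (SE 0.30), or 0.45 without MI replicate 2, but its sham mice ran from 2.4 to 6.54 FPKM and spanned MI replicates 1 and 3. The most negative values were -0.21 (SE 0.11) for Mtor, the kinase of the mTOR complexes, -0.14 (SE 0.29) for Pik3r1, a regulatory subunit of PI3K, and -0.14 (SE 0.08) for Akt2, a kinase that PI3K signalling activates. On the TPM scale Pik3r1 turned to 0.04 and Akt2 to 0.03. In Akt2 every MI mouse, at 5.09, 5.55 and 5.42 FPKM, lay below every sham mouse, at 5.86 to 6.25 FPKM, while the groups overlapped in Mtor and Pik3r1. Over all 7 mice none of the 3 passed an adjusted p of 0.05 in limma. Without MI replicate 2, Mtor was at -0.32 with an adjusted p of 0.0043 in limma, Pik3r1 at -0.46 with 0.0824, and Akt2 at -0.16 with 0.0347.

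Of 5 genes of growth hormone input, which drives Igf1 in liver, 1 was higher and 2 were lower at an unadjusted p under 0.05, against 29.5% and 9.85% of all genes, and the median log2 fold change was -0.27. Ghr, the growth hormone receptor, was at 12.3 to 13.1 FPKM in the sham mice and at 9.2, 11.7 and 9.49 FPKM in the MI mice. All 3 MI mice were below all sham mice, with a log2 fold change of -0.32 (SE 0.10; adjusted p 0.108 in limma), or -0.41 without MI replicate 2. Jak2, the kinase bound to that receptor and to many cytokine receptors, was at 4.99 to 5.69 FPKM in the sham mice and 10.5, 5.84 and 8.84 FPKM in the MI mice, with a log2 fold change of 0.56 (SE 0.17; adjusted p 0.108 in limma), or 0.77 without MI replicate 2. Cish, a target of STAT5, had -0.89 (SE 0.43; adjusted p 0.153 in limma), or -0.95 without MI replicate 2, but its sham mice fell apart, at 9.77, 11.3, 3.05 and 3.12 FPKM, with the MI mice at 2.59, 3.01 and 2.53 FPKM. The signs of these 5 genes held under the 4 other scalings.

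None of the 5 genes of the Igf2 locus and of Igf2 mRNA binding passed the filter. H19, the maternally expressed RNA beside Igf2, was at 0.274, 0.251, 0.524 and 0.235 FPKM in the sham mice and at 2.5, 0.265 and 2.29 FPKM in the MI mice. MI replicate 2 was inside the sham range and the other MI mice above it. Igf2bp2, which binds Igf2 mRNA, was at 0.209 to 0.279 FPKM in the sham mice and at 0.865, 0.361 and 0.615 FPKM in the MI mice, with no overlap.

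**Figure D5:**
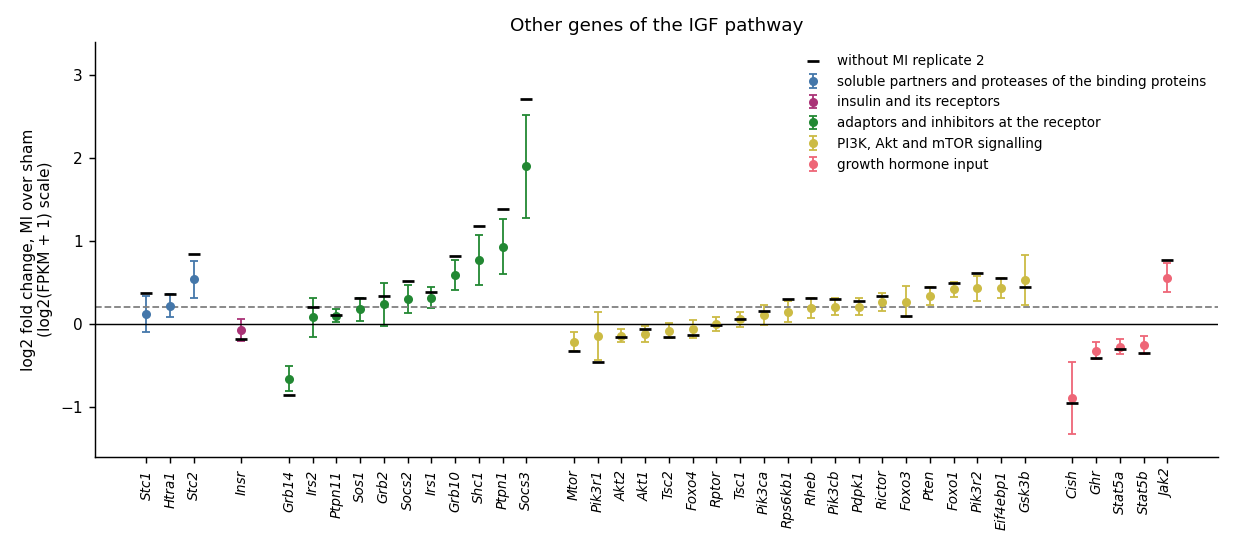
Log2 fold change of MI over sham mice, on the log2(FPKM + 1) scale, for the pathway genes tested and reported, coloured by list. Points are the fit over all 7 mice with its SE, black dashes the fit without MI replicate 2, and the dashed line is the median of all genes tested, 0.21. Socs3 at 1.90 lies highest and Cish at -0.89 lowest, and without MI replicate 2 Socs3 lies at 2.71.

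For 5 members the genes with the nearest profile over the 7 mice were sought among 11430 others, by the root mean square difference in log2(FPKM + 1) after subtracting each gene's sham mean. Nearest to Igf1 were Fstl3 (0.0715), Bmp1 (0.0761) and Gpx7 (0.0798), and nearest to Igf2 were Pxdc1 (0.0635), Upp1 (0.0737) and Tlnrd1 (0.0783). Igf1r had Tent4a (0.0306), Gm6863 (0.0324) and Lrp5 (0.0347), which is closer in absolute terms since its own profile is flatter. Igfbp3 was followed by Ccn3 (0.0519), Ptgr1 (0.0565) and Itgam (0.0767), and Igfbp5 by Reck (0.0761), Vwf (0.0864) and Galns (0.0957). Each of these genes had MI replicates 1 and 3 well above the sham mice and MI replicate 2 near them.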

How the data were processed

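Gene-level FPKM values that the authors deposited, scaled by gene length and library, were used for 56980 genes in 7 mouse libraries, with 0 columns unused. The submitters' processing notes name CASAVA 1.8, HISAT2, SAMtools 1.3.1, edgeR and mm10, and the annotation, the counting and the use of strand are not given in the sources used here. Symbols came from GENCODE M21 on GRCm38, which held 91.4% of the identifiers. Groups came from the labels.

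The 11431 genes that 3 or more mice held at 1 FPKM or above were tested as log2(FPKM + 1), with a pseudocount of 1. The test was limma 3.58.1 with an eBayes trend, run in R 4.3.3 on MI minus sham without covariates, with Benjamini-Hochberg adjustment at 0.05. The pseudocount understates changes of low genes. Single genes and 5 within-mouse pairs were also tested by two-sided exact permutation over 35 splits, where the smallest p is 0.0571. FPKM moved in whole steps of 1 fragment, which gave whole fragments, to within 0.02 of a fragment (slightly more for high counts), for 30503 of 30504 genes above 0, and the recovered depths set the precision; a voom fit on these fragments was an alternative. In simulated data, 97.1% of 3000 genes were recovered exactly, and limma on 11431 genes called 175 of 200 genes changed by 1.5 (log2) and 5 unchanged ones with the pooled spread of MI and sham mice. That simulation gave all 3 MI mice the same change and drew each gene on its own. In the data MI replicate 2 departed from the other MI mice across many genes, so the simulated rate does not carry over to them. P-values measure the spread between mice.

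Members and lists were chosen with earlier results of these data known. Named were all members, the 2 largest and 2 smallest log2 fold changes of each pathway list, and the 3 nearest profiles to 5 members. A gene under this rule is not reported here. Other genes named beside these were chosen after their values were seen. Alternatives were another pseudocount, filter, scaling, trend or weighting, a replicate block, and each mouse left out. The setting without mitochondrial genes scaled the FPKM of the other genes in each mouse up to the FPKM sum of all its genes. It did not scale by the fragments of the other genes, which could shift the values by another amount and was not run. Promoters and positions are from RefSeq (GRCm38.p6; all 10 members matched) and GENCODE M21. Tables were handled with pandas 2.3.3 on Python 3.11.15, exact tests with NumPy 2.4.6 and SciPy 1.17.1, and plots with matplotlib 3.10.9.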

Additional observations from a re-analysis of the deposited data

How the results depend on the processing

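Of 18 alternatives run for the log2 fold changes of the 9 members tested, 2 brought all 9 past an adjusted p of 0.05 in limma. They were leaving out MI replicate 2, and sample weights, which gave MI replicate 3 nearly all the weight (9 members called higher, against 0). Most genes were called in both: 7636 of 11431 higher and 2316 lower with sample weights, and 57.0% higher and 14.7% lower without MI replicate 2. Leaving out each mouse in turn gave 0 to 9 called higher, and 9 only without MI replicate 2. The adjusted p of Igf1 ran from 4.63e-08 to 0.335 over the alternatives, and that of Igf2r from 1.68e-05 to 0.789. The Igf2r log2 fold change turned to -0.04 without mitochondrial genes, and no other member changed sign. That turn belongs to a scaling by FPKM sums, and a scaling by the fragments of the other genes was not run. Members wholly above the sham mice numbered 4, against 16.1% of all genes. They numbered 5 with quantile normalization, 6 with median log-ratio scaling and 7 without mitochondrial genes. Leaving out each mouse gave 4 to 9, with 9 without MI replicate 2. The share of all genes under these other settings is not given here, so the higher counts cannot be read as a trait of the members. The median log2 fold change of all genes was 0.21 as deposited, 0.42 as TPM and -0.04 without mitochondrial genes, and unadjusted calls went from 3370 higher and 1126 lower to 1968 and 2267 in the last. With the replicate block, which leaves out sham replicate 4, 0 members and 0 genes in all were called. The numbers were not taken as pairs because no source says that they pair mice. Same-numbered mice deviated together at r of 0.0739, -0.0163 and -0.0802. With MI replicate 2 apart from the other MI mice, these values cannot show or exclude pairing. The directions of the 5 within-mouse differences held throughout. At 3 against 4 mice the two-sided exact test used here, which doubles the smaller tail, cannot pass 0.05.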

Other observations

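Sham replicates 1 and 2 differed from sham replicates 3 and 4 in a few pathway genes, which were noticed after their values were seen. Cish was at 9.77 and 11.3 FPKM in the former and at 3.05 and 3.12 FPKM in the latter. Gsk3b was at 6.54 and 4.84 FPKM against 2.4 and 2.4 FPKM, while Foxo3 was at 8.46 and 9.99 FPKM against 13.1 and 13.2 FPKM and Pik3r1 at 10.6 and 13.4 FPKM against 18.3 and 18.1 FPKM. For these genes the sham SD holds a spread within the group that the labels do not describe, and no test was made of it.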
